A study of Juglans cathayensis with 6 samples.

Results

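Polyphenol oxidases are copper enzymes that oxidize phenolic compounds to quinones, which polymerize into brown pigments. In most plants the enzyme is imported into plastids while its phenolic substrates lie in the vacuole, so cutting the tissue brings them together and the cut surface browns. In common walnut, *Juglans regia*, silencing of a polyphenol oxidase gene has been tied to altered tyrosine metabolism and to leaf lesions. The enzyme is often made in a latent form, so transcript level is not a measure of its activity.

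The assembly of *Juglans cathayensis*, the Chinese walnut, held 2 polyphenol oxidase genes among 39234 listed genes, TRINITY_DN12255_c0_g1 and TRINITY_DN12255_c0_g2, called g1 and g2 here. They were chosen as the genes whose main description reads chloroplastic-like polyphenol oxidase, matched to *Juglans regia*. RNA was sequenced in 6 libraries from husk, the green flesh that surrounds the walnut shell. The 3 libraries of one variety came from husk labelled white when freshly cut and the 3 of the other from husk labelled brown, all with a time label of 35 days and no special treatment. Each colour is 1 variety, so colour and any other difference between the varieties cannot be told apart. No label says that libraries of a variety came from separate trees, so p-values reflect the scatter among these libraries only, and that scatter may be technical.

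No other listed gene shared the assembly cluster of g1 and g2, a polyphenol oxidase description, the same KEGG orthology entry, a Pfam tyrosinase domain or the term for monophenol monooxygenase activity. The table holds only genes that reached at least 2.01 TPM in their highest library, so less abundant family members would be missing from this search. TPM is a relative abundance scaled by gene length, and levels of different genes can be compared on it. The listed lengths were 2048 bases for g1 and 2006 bases for g2, each with 1 assembled transcript, and their protein match in Swiss-Prot (polyphenol oxidase of apple), their GO terms and their orthology entry were the same. Genes of the same assembly cluster share sequence, so reads can be split between them, and the low TPM of g2 in white husk, where g1 was much more abundant, is uncertain for that reason. Whether g1 and g2 are separate loci or alleles of 1 locus was not tested.

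White values were subtracted from brown ones after taking log2(TPM + 1), a scale that compresses differences between low values, and the differences were tested with limma over the 37829 genes that reached 1 TPM in 3 or more libraries. A gene is said to have risen or fallen at a Benjamini-Hochberg adjusted p under 0.05, which 1450 genes (3.83%) did upwards and 819 (2.17%) downwards in brown husk. At an unadjusted limma p under 0.05, 5561 of the 37829 tested genes were higher and 2570 lower in brown husk. The counts at an unadjusted p given for gene lists below stand against that background.

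White replicate 2 stood apart in the breadth of its transcriptome, with 28349 genes at 1 TPM or more against 33146 to 35240 in the other libraries. Read depth cannot be recovered from TPM, so no counting interval accompanies these values. Photosynthetic genes, a marker list for green tissue, were present in every library, with a summed level of 6960, 8650 and 8066 TPM in white replicates 1, 2 and 3 and 9538, 4814 and 8123 TPM in brown replicates 1, 2 and 3. All 37 members of that list were above 0 in all libraries, and none passed the threshold between varieties by limma (1 higher and 5 lower at an unadjusted p under 0.05), though 1 rose without brown replicate 2. Cellulose synthase genes of secondary walls, a marker list for the lignifying shell beneath the husk, summed to between 12.9 and 19.8 TPM over 5 genes. Of these 1 rose, cellulose synthase subunit 7 (TRINITY_DN15855_c0_g2), with 0.37, 0 and 0.24 TPM in white and 3.56, 4.76 and 3.06 TPM in brown replicates 1, 2 and 3. That call was lost when white replicate 3 (limma adjusted p = 0.0623), brown replicate 2 (0.0592) or brown replicate 3 (0.0553) was left out. The seed and embryo list summed to 120 to 165 TPM in white and 218 to 245 TPM in brown husk over 12 genes, 2 oleosins and 10 late embryogenesis abundant proteins. Both oleosins went the other way, with log2 differences of -1.14 and -1.12 (limma adjusted p = 0.0487 and 0.0706). The higher sum in brown husk thus came from late embryogenesis abundant genes. The most abundant tested one, an At1g64065-like gene (TRINITY_DN13108_c1_g2), averaged 106 TPM over all libraries. Its log2 difference of 1.01 missed the threshold (limma adjusted p = 0.0546) and passed it in 5 alternative fits. A positive log2 difference was found in 7 of the 11 tested genes of the list. None of the genes analysed here was described as vicilin, legumin or 2S albumin, the storage proteins that define seed. Of the 11 tested genes of that list 1 rose, a late embryogenesis abundant protein At1g64065-like gene (TRINITY_DN1151_c0_g1, limma adjusted p = 0.0298), and 1 fell, oleosin 1-like (TRINITY_DN17035_c0_g1, 0.0487). Each of these calls was lost in all 6 fits that left out 1 library. The part of these marker lists in the values below was not tested.

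The more abundant gene, g1, was higher in brown than in white husk. Its level was 34.3, 20.3 and 29.2 TPM in white replicates 1, 2 and 3 and 78.3, 162 and 121 TPM in brown replicates 1, 2 and 3. All brown libraries were above all white ones, and the lowest brown library was 2.28 times the highest white one. Group means were 27.9 ± 7.12 TPM for white and 121 ± 42.0 TPM for brown husk (SD, n = 3 each), a ratio of 4.32. On the log2(TPM + 1) scale the difference was 2.04 ± 0.30 (SE), with a 95% interval of 1.35 to 2.73 and an adjusted p of 0.0110 (limma over all tested genes, Benjamini-Hochberg). In bulk tissue, more cells with the transcript and more transcript per cell cannot be told apart.

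The second gene, g2, was near the bottom of the table in white husk and spread widely in brown husk. It had 0.85, 0.14 and 1.22 TPM in white replicates 1, 2 and 3 and 3.85, 50.4 and 27.3 TPM in brown replicates 1, 2 and 3. The groups did not overlap, and the lowest brown library was 3.16 times the highest white one. Means were 0.737 ± 0.549 TPM for white and 27.2 ± 23.3 TPM for brown husk (SD, n = 3 each). The log2 difference was 3.52 ± 0.81 (SE), with a 95% interval of 1.62 to 5.42, and it missed the threshold of 0.05 with an adjusted p of 0.0501 (limma, unadjusted p = 0.00301). In this comparison g2 entered the test with 1 white and 3 brown libraries at 1 TPM or more, and g1 with all 6.

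**Figure D1:**
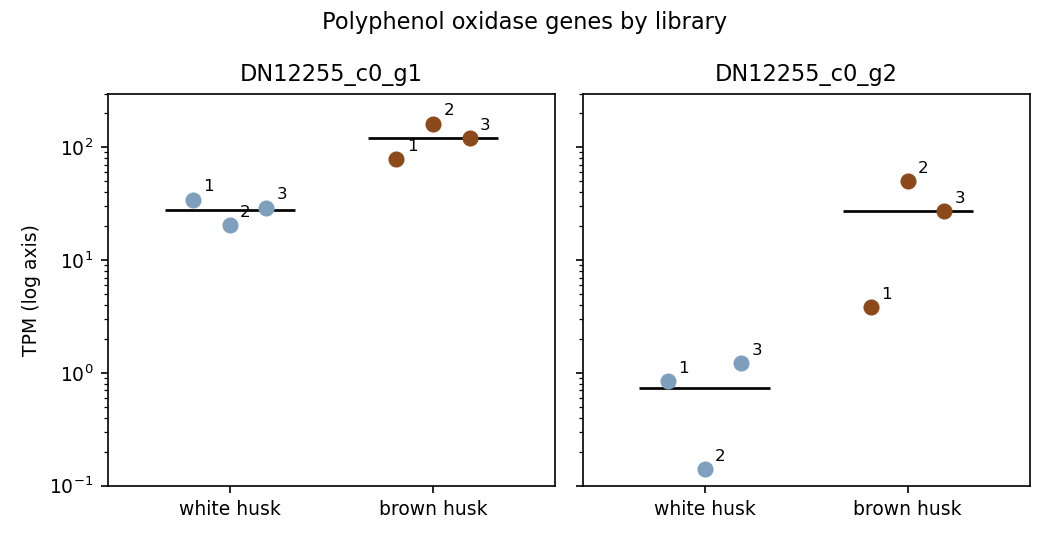
TPM (log axis) of g1 (left) and g2 (right) in each library, with white husk in blue and brown husk in brown. Numbers beside points are replicate numbers and horizontal lines are means of 3 libraries; in both genes every brown point lies above every white one, and brown replicate 1 is the lowest brown point.

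All brown libraries were above all white ones in 7654 genes (20.2%) and below them in 3347 (8.85%). Non-overlapping groups, as in g1 and g2, were thus common in the table. The log2 difference of g1 was larger than that of 97.8% of tested genes, at number 821 from the top. That of g2 was larger than 99.8%, at number 75. These ranks turned on the value added to TPM. With 0.5 in place of 1 they were 1481 for g1 and 106 for g2, and with 0.1 they were 3073 and 403. The balance of directions moved with scaling, from 63.9% of called genes being higher as deposited to 54.4% with TMM factors and 49.7% with quantile normalization. Over all tested genes the median difference was 0.19 as deposited and -0.01 after quantile normalization, and g1 and g2 lay 1.85 and 3.33 above the deposited median. With TMM factors their log2 differences were 1.87 and 3.44, and with quantile normalization 1.98 and 3.24.

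The calls of both genes turned on single brown libraries. Without brown replicate 3 the log2 difference of g1 was 2.01 with a limma adjusted p of 0.0548. In each of the other 5 fits that left out 1 library, g1 was past the threshold. For g2 the adjusted p was 0.00846 without brown replicate 1, where its log2 difference was 4.51, and 0.0956 to 0.167 when any other library was left out. Without white replicate 2, the library with fewest genes, the differences were 1.83 (adjusted p = 0.0288) for g1 and 3.24 (adjusted p = 0.121) for g2. A pseudocount of 0.5 put g2 past the threshold (adjusted p = 0.0475) and one of 0.1 did not (adjusted p = 0.0617).

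**Figure D2:**
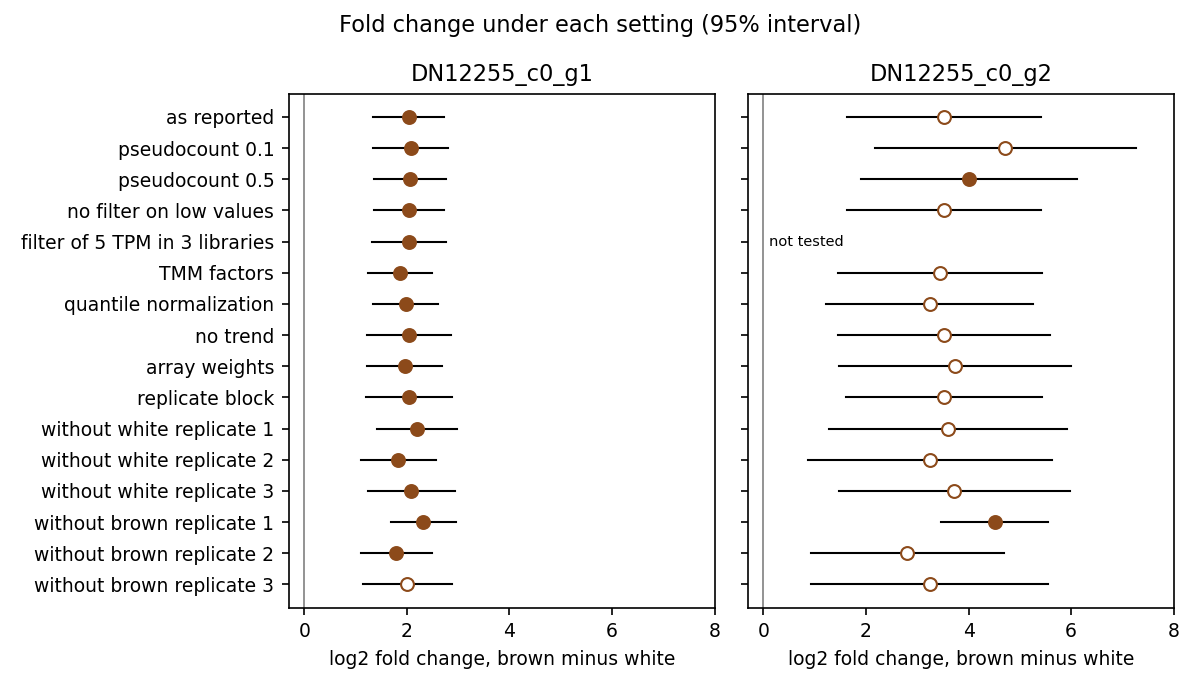
Log2 fold change (brown minus white, points) with its 95% interval (lines) for g1 (left) and g2 (right) under each setting, where filled points had an adjusted p under 0.05. All intervals lie above 0, g1 is open only without brown replicate 3, and g2 is filled only with a pseudocount of 0.5 and without brown replicate 1.

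Together the transcripts of both genes summed to 35.2, 20.4 and 30.4 TPM in white replicates 1, 2 and 3 and 82.2, 213 and 148 TPM in brown replicates 1, 2 and 3. Mean sums were 28.7 ± 7.54 and 148 ± 65.3 TPM (SD, n = 3 each), a ratio of 5.15. In every library g1 was the more abundant gene, by 40.4, 145 and 23.9 times in white replicates 1, 2 and 3 and by 20.3, 3.22 and 4.44 times in brown replicates 1, 2 and 3. The share of g2 in the sum was 2.42%, 0.686% and 4.01% in the white libraries and 4.68%, 23.7% and 18.4% in the brown ones. Brown replicate 1 lay close to white replicate 3 in this share, apart from the other brown libraries. The log2 ratio of g2 to g1, taken on TPM + 1, averaged -4.08 ± 0.27 for white and -2.60 ± 1.26 for brown husk (SD, n = 3 each), and brown replicate 1, at -4.03, fell within the white range. The difference was 1.48 (exact two-sided permutation p = 0.2, where 0.1 is the smallest that 3 against 3 can give, so this test cannot reach 0.05). Whether brown replicate 1 overlapped the white libraries turned on the value added to TPM. Without any added value its g1 to g2 ratio and its g2 share lay just outside the white range, and with 0.1 in place of 1 the difference was 2.64 with an exact permutation p of 0.1. Depending on which library was left out, the difference on TPM + 1 ranged from 1.01 to 2.19.

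Spread within a variety differed between the genes. Among brown libraries the highest level was 2.07 times the lowest for g1 and 13.1 times for g2, and among white libraries 1.69 and 8.71 times. The SD of log2(TPM + 1) over brown libraries was 0.52 for g1 and 1.77 for g2, the latter larger than in 99.6% of tested genes, whose median was 0.29. Over white libraries it was 0.37 and 0.50, against a median of 0.41. Both genes had brown replicate 2 highest, brown replicate 3 next and brown replicate 1 lowest, an order found in 20.2% of all tested genes and in 33.7% of the genes that rose. Photosynthetic genes had the reverse order in their summed level, with brown replicate 1 highest and brown replicate 2 lowest, and 1 of their 37 members had the order of g1 and g2. The part of this difference among brown libraries in the levels of g1 and g2 was not tested. White replicate 2 was the lowest white library for both genes, as it was for 60.6% of all tested genes.

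Polyphenol oxidase acts beside other enzymes that oxidize phenolics. Class III peroxidases are secreted enzymes that use hydrogen peroxide. Their 33 listed genes, of which 1 has a main description other than peroxidase, summed to 714, 651 and 689 TPM in white replicates 1, 2 and 3 and to 1202, 1696 and 1583 TPM in brown replicates 1, 2 and 3. Laccases, which are multicopper oxidases of the cell wall, summed over 13 genes, 1 of them mainly described as L-ascorbate oxidase-like, to 28.1, 186 and 81.8 TPM in white and 41.8, 147 and 81.3 TPM in brown husk, and these ranges overlapped. Much of this sum was 1 laccase-14-like gene (TRINITY_DN15107_c2_g7), which averaged 62.7 TPM over all libraries (log2 difference -0.75, limma adjusted p = 0.684). The other tested genes of the list averaged 6.37 TPM or less. Of the summed TPM of all 3 families, g1 and g2 held 4.53%, 2.38% and 3.80% in the white libraries and 6.20%, 10.3% and 8.19% in the brown ones. The share averaged 3.57% ± 1.09 for white and 8.24% ± 2.08 for brown husk (SD, n = 3 each), without overlap between the groups. Between 4 and 6 of the 33 peroxidases were more abundant than g1 in any library, and 1 laccase was so in white replicates 2 and 3 and none in the other libraries. More peroxidases stood above g2 in white husk, 27, 30 and 23 in replicates 1, 2 and 3, than in brown husk, with 15, 7 and 7.

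Among 30 tested class III peroxidases 3 rose and none fell by limma, with 11 higher and 3 lower at an unadjusted p under 0.05. The median log2 difference was 0.62 against 0.19 for all tested genes. Cationic peroxidase 1-like (TRINITY_DN10961_c0_g1) was the member with a profile nearest to g2, given further on. Peroxidase 73-like (TRINITY_DN15585_c2_g1), with the highest mean level, rose from 151 ± 23.3 to 514 ± 119 TPM, and peroxidase 27-like (TRINITY_DN2854_c0_g1) rose from 137 ± 7.98 to 240 ± 11.9 TPM (SD, n = 3 each). The first passed in all fits run. The second lost its call with TMM factors (log2 difference 0.63, limma adjusted p = 0.0693), without the mean-variance trend (0.0629), and without white replicate 3 or any 1 brown library (0.0509 to 0.0896). Leaving out brown replicate 1 gave 7 rises in this list, while leaving out white replicate 3, brown replicate 2, brown replicate 3 or the trend gave 1, and 1 peroxidase fell under TMM factors, quantile normalization, a filter of 5 TPM or without white replicate 2. Of the 7 tested genes of the laccase list 1 rose and none fell by limma, the same numbers as at an unadjusted p under 0.05. It was laccase-15-like (TRINITY_DN15107_c2_g3), which had 0.90, 0.09 and 0.40 TPM in white and 17.2, 6.73 and 10.6 TPM in brown replicates 1, 2 and 3. Here brown replicate 1 was the highest library, unlike in g1 and g2. The list median of 0.88 is the value of the L-ascorbate oxidase-like gene (TRINITY_DN11090_c0_g1), which the ascorbate list also holds, and the 6 genes described as laccases had a median of 0.48. Without brown replicate 1 a second laccase rose, giving 2.

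Enzymes that make or turn over phenolic substrates were described by 2 lists. At the entry of phenylpropanoid synthesis, which turns phenylalanine into activated coumarate, 1 of 11 genes rose and none fell by limma (5 higher and 1 lower at an unadjusted p under 0.05). The median log2 difference was 0.92, and 8 of 11 genes had the brown order of g1 and g2, against 20.2% of all tested genes. Their summed level was 179, 57.1 and 146 TPM in white and 115, 353 and 239 TPM in brown replicates 1, 2 and 3, with overlap between the groups. Without white replicate 2 there was also 1 fall. The gene that rose, a phenylalanine ammonia-lyase-like gene of the first step (TRINITY_DN15955_c0_g1), had 4.99, 1.65 and 4.20 TPM in white and 26.7, 84.9 and 52.0 TPM in brown replicates 1, 2 and 3 (log2 difference 3.53 ± 0.46, limma adjusted p = 0.00789). Caffeoyl esters are classic substrates of polyphenol oxidase. None of 13 genes listed for them passed in either direction by limma (1 higher and 1 lower at an unadjusted p under 0.05), and the list median was -0.41. Only 5 of the 13 belong to synthesis, 4 shikimate O-hydroxycinnamoyltransferases and cytochrome P450 98A2, with a median of -0.41. Another 7 are caffeoylshikimate esterases, which cleave such an ester, with a median of 0.05, and 1 is an omega-hydroxypalmitate O-feruloyl transferase. The most abundant gene of the list, a shikimate O-hydroxycinnamoyltransferase-like gene (TRINITY_DN12265_c2_g6), averaged 84.5 ± 19.8 TPM over white and 63.0 ± 9.95 TPM over brown libraries (SD, n = 3 each, limma unadjusted p = 0.0814). The brown order of g1 and g2 was held by 5 of the 13 genes listed for caffeoyl esters. It was also held by 16 of 30 tested class III peroxidases and 4 of 7 tested genes of the laccase list. In the lists given next it was held by 5 of 19 copper genes and 0 of 3 import genes. Jasmonate synthesis had it in 9 of 22 tested genes and ascorbate metabolism in 3 of 15.

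Polyphenol oxidase needs copper and, in the species studied, reaches the thylakoid lumen by the twin-arginine import route. Of 19 genes for copper transporters, chaperones and plastocyanin none rose and 1 fell by limma (1 higher and 2 lower at an unadjusted p under 0.05), and the list median was -0.14. The gene that fell, copper transporter 5.1-like (TRINITY_DN13017_c0_g1), had 64.0, 82.1 and 81.3 TPM in white and 45.5, 35.3 and 46.3 TPM in brown replicates 1, 2 and 3 (log2 difference -0.83 ± 0.17, limma adjusted p = 0.0333). It kept its call without white replicate 1 and lost it without each of the other 5 libraries, as well as without the trend (adjusted p = 0.0945) and with array weights (adjusted p = 0.0780). There were 2 falls in this list without white replicate 2 and under TMM factors, quantile normalization or a filter of 5 TPM. None of the 3 genes of twin-arginine import passed in any limma fit, none had an unadjusted p under 0.05, and their sum was 63.0 to 76.6 TPM in white and 63.8 to 71.3 TPM in brown husk. The most abundant of them, TATA (TRINITY_DN2969_c0_g1), had 30.2 ± 4.76 and 31.0 ± 1.05 TPM (SD, n = 3 each).

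**Figure D3:**
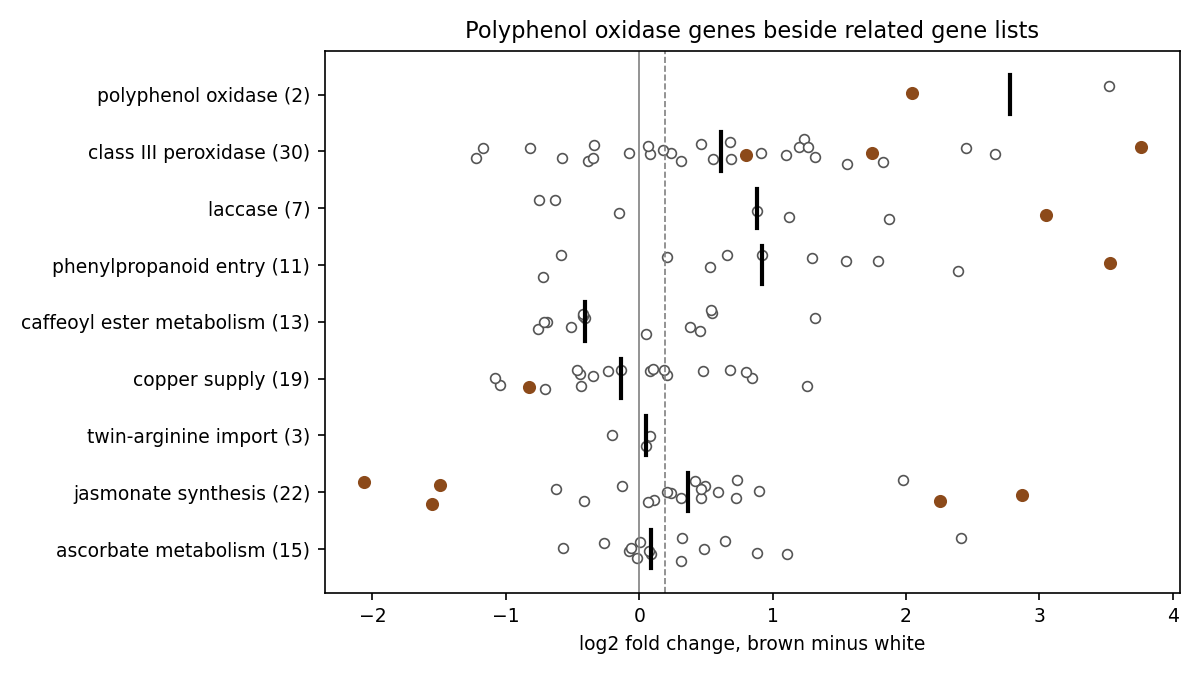
Log2 fold change (brown minus white, horizontal axis) of each tested gene in the polyphenol oxidase list and in related lists, with the number of tested genes in brackets. Filled points had an adjusted p under 0.05, black bars are list medians and the dashed line is the median of all tested genes, 0.19; g1 and g2 lie at 2.04 and 3.52.

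Jasmonate, a hormone made from plastid lipids after wounding, raises polyphenol oxidase transcripts in tomato. Of 22 tested genes of its synthesis 2 rose and 3 fell by limma (6 higher and 3 lower at an unadjusted p under 0.05). A positive log2 difference was found in 16 of the 22, and the list median was 0.37. An allene oxide synthase 1-like gene (TRINITY_DN6772_c0_g1) was listed at 0 in white husk throughout and reached 2.97, 13.1 and 5.93 TPM in brown replicates 1, 2 and 3, and its call was lost without white replicate 3 or brown replicate 3. A 13S-lipoxygenase 2-1-like gene (TRINITY_DN15544_c0_g1) fell from 9.72 ± 1.21 to 1.58 ± 0.51 TPM (SD, n = 3 each, log2 difference -2.07 ± 0.27, limma adjusted p = 0.00789) and passed in all fits run. Leaving out 1 library gave 0 to 3 rises in this list, with none without white replicate 3, and 1 fall without any 1 library other than white replicate 2. A pseudocount of 0.1 gave 1 fall, and a filter of 5 TPM gave 1 fall and no rise. Ascorbate reduces quinones back to phenolics and so delays browning. None of 15 tested genes of ascorbate metabolism passed by limma (3 higher and 1 lower at an unadjusted p under 0.05), and the list median was 0.09. Of these, 9 are ascorbate peroxidases and monodehydroascorbate reductases, which use and regenerate ascorbate, with a median of 0.0033. The other 6 are L-ascorbate oxidases or homologs, and ascorbate oxidase consumes ascorbate. Their median was 0.76. One rise in the list appeared with pseudocounts of 0.1 and 0.5 and without brown replicate 1 (an L-ascorbate oxidase, TRINITY_DN11090_c0_g2), and without the trend (an L-ascorbate oxidase homolog, TRINITY_DN13367_c0_g2). Cytosolic L-ascorbate peroxidase (TRINITY_DN11486_c0_g1), the most abundant gene of the list, averaged 613 ± 255 TPM over white and 567 ± 71.6 TPM over brown libraries (SD, n = 3 each).

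Genes most like g1 and g2 in profile were found by the root mean square difference of log2(TPM + 1) over the 6 libraries, after each gene was centred on its own mean. Profiles were not scaled, so the size of their swings counts in this difference as well as their shape. Among 11399 genes compared, with a naming description and a mean of at least 5 TPM, the median difference from g1 was 1.04. Nearest to g1 was a G-type lectin receptor-like kinase, LECRK1 (TRINITY_DN15378_c0_g1), at 0.0841. It had 12.7, 6.46 and 10.8 TPM in white and 33.0, 61.9 and 45.5 TPM in brown replicates 1, 2 and 3. Next came a magnesium-dependent phosphatase 1-like gene (TRINITY_DN5312_c0_g1, difference 0.103), an At3g50940-like AAA-ATPase (TRINITY_DN7236_c0_g1, 0.113), an inorganic phosphate transporter 1-4-like gene (TRINITY_DN12003_c0_g2, 0.119) and a second lectin receptor-like kinase, matched to At1g11410 (TRINITY_DN14440_c1_g3, 0.139). All 5 had white replicate 2 lowest and brown replicate 2 highest, as g1 did, which follows from their choice by profile over these libraries.

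For g2 the median difference was 2.01 and the nearest gene was cationic peroxidase 1-like (TRINITY_DN10961_c0_g1), at 0.225. That gene of the class III peroxidase list had 1.12, 0.10 and 0.64 TPM in white and 4.71, 54.2 and 29.2 TPM in brown replicates 1, 2 and 3, where the brown values were close to those of g2. It was followed by a 3-ketoacyl-CoA synthase 2-like gene (TRINITY_DN12061_c3_g11, 0.305), an enzyme that lengthens fatty acids, and a cysteine-rich and transmembrane domain protein A-like gene (TRINITY_DN14066_c2_g1, 0.318). Arabinogalactan peptide 16 (TRINITY_DN1509_c0_g1, 0.345) and a tropinone reductase homolog (TRINITY_DN9734_c0_g1, 0.349) completed the set. These 5 genes passed the threshold in the comparison of all 6 libraries, and each kept its call in 1 of the 6 fits that left out a library, the one without brown replicate 1. With quantile normalization, array weights or no trend, cationic peroxidase 1-like and the cysteine-rich gene also lost theirs. All 5 were chosen for a profile near that of g2 over these same libraries, so their calls and losses are not independent of it. Between g1 and g2 the difference was 1.05, and 5802 genes were nearer to g1 than g2 was, while 114 were nearer to g2 than g1 was. Centred values ran from -1.43 to 1.51 in g1 and from -2.31 to 3.18 in g2, so their swings differed in size. Both had white replicate 2 lowest and the same brown order, and the parts of size and shape in the 1.05 were not computed. The profiles share their libraries, so a small difference describes these 6 libraries and nothing further.

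**Figure D4:**
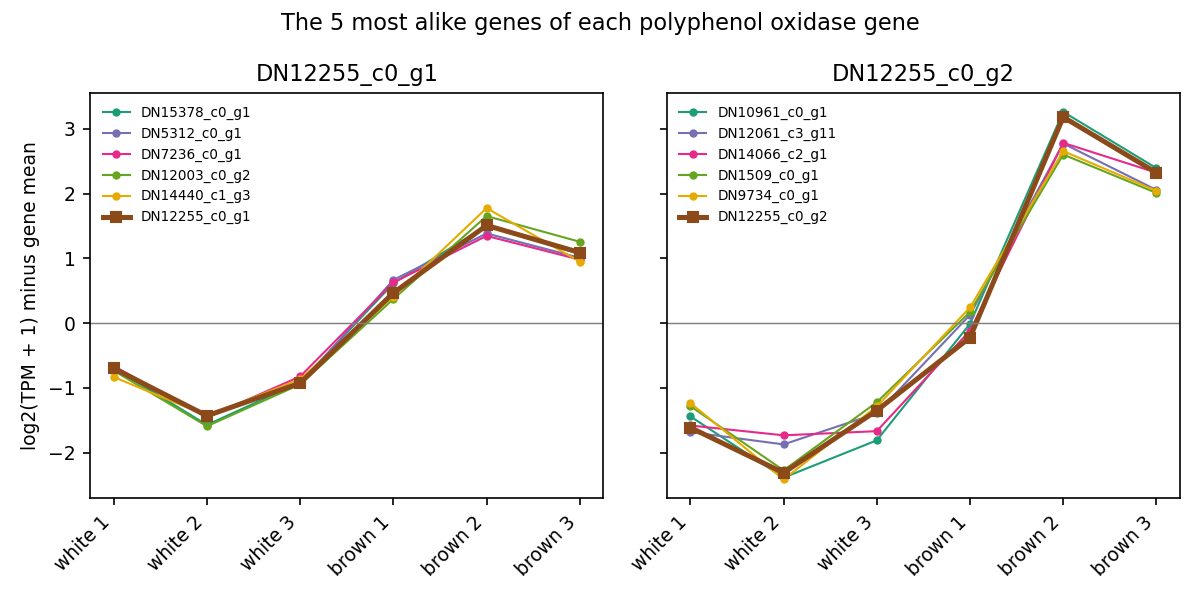
Log2(TPM + 1) minus the gene's own mean over 6 libraries (vertical axis) in each library, for g1 (left) and g2 (right, thick brown lines) and the 5 genes nearest to each (thin lines). Lines join libraries only to guide the eye, and brown replicate 1 lies farther below the other brown libraries on the right than on the left.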

How the data were processed

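RNA from husk of 2 varieties (3 libraries each) was extracted with a plant RNA kit and sequenced from Illumina libraries, per the labels' protocols. Cutadapt and FastQC were used, per the submitters' processing notes. Identifiers in the deposited table point to an assembly by Trinity, and which quantifier was run is not given in the sources used here. Values deposited by the authors are TPM per assembled gene and library, and the deposited gene length is in bases. TPM keeps no depth, so depth per library is unknown.

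TPM was transformed as log2(TPM + 1). The 37829 genes that reached 1 TPM in 3 or more of the 6 libraries were tested by limma 3.58.1 (R 4.3.3) with a mean-variance trend and no covariate, and p-values were adjusted over all of them by the Benjamini-Hochberg method. The fit was tested on simulated data. Exact permutation tests used scipy 1.17.1. TMM factors, a trimmed mean of log ratios between libraries, were computed directly on TPM. Alternatives were scaling by TMM factors or quantiles, pseudocounts of 0.1 and 0.5, a stricter filter (5 TPM) or none, a fit with no trend, array weights, a block on the replicate number, and leaving out each library with the tested genes kept. Named genes are g1 and g2, the 5 nearest profiles of each, and in each of 8 related lists the 2 most abundant of the members that passed, or the most abundant member where none passed. Genes outside this rule (those named from the marker lists, the L-ascorbate oxidases, the most abundant laccase and the untested laccases) were chosen after their values were seen. Members and lists were chosen with earlier results of these data known. No sequences were used here.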

Additional observations from a re-analysis of the deposited data

How the results depend on the processing

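The log2 difference of g1 kept its sign and its call in 14 of 15 alternatives and missed the threshold without brown replicate 3 (2.01, limma adjusted p = 0.0548); leaving out 1 library gave 1.80 to 2.32. That of g2 kept its sign in all alternatives that tested it and passed the threshold with a pseudocount of 0.5 (4.01, adjusted p = 0.0475) and without brown replicate 1 (4.51); leaving out 1 library gave 2.81 to 4.51. With a filter of 5 TPM g2 was not tested, so that alternative gave no value. Leaving out 1 library gave 410 to 1255 genes higher and 259 to 1013 lower in brown husk, the lowest both without brown replicate 3, and quantile normalization gave 1275 lower. Same-numbered libraries did not deviate together beyond a correlation of 0.0572 across genes (0.0572, 0.0561 and 0.0109 for numbers 1, 2 and 3), though each correlated best with its own number, so the numbers were not taken as pairs. With the replicate number as a block 735 genes were higher and 490 lower, g1 had an adjusted p of 0.0452 and g2 one of 0.0770, and 12 of the other 20 named genes past the threshold no longer passed, cellulose synthase subunit 7 and copper transporter 5.1-like among them. The difference in log2 ratio of g2 to g1 was 2.64 with a pseudocount of 0.1 and 1.94 with 0.5, against 1.48. The causes of these changes were not tested. TPM without depth and 3 libraries a variety limit what low levels, such as those of g2 in white husk, can show.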

Other observations

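Of the 13 listed laccases 6 were not tested, because fewer than 3 libraries reached 1 TPM, and they were examined after their values were seen. In all 6 brown replicate 2 was the highest library and brown replicate 3 the next, as in g1 and g2. Genes left out of the test include those confined to fewer than 3 libraries. The share of untested genes with this order was not computed, so the count of 6 has no background beside it. A laccase-7-like gene (TRINITY_DN7462_c0_g1) had 0 TPM in brown replicate 1 and throughout white husk, with 10.5 TPM in brown replicate 2 and 5.29 TPM in brown replicate 3. A laccase-14-like gene (TRINITY_DN16221_c0_g1) was at 0 in the same libraries, at 12.8 TPM in brown replicate 2 and at 3.02 TPM in brown replicate 3. In brown replicate 1, which lay above all white libraries in g1 and g2, 4 of the 6 were listed at 0.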
